A study of Homo sapiens with 4 samples.

Results

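Amnion-associated marker genes were examined in naive and primed human embryonic stem cells (hESCs). The 8 genes were *VTCN1*, *GABRP*, *ISL1*, *CDH10*, *CTSV*, *TPM1*, *IGFBP3* and *IGFBP5*, chosen by symbol from the 62218 genes with a matched transcript. They have 89 annotated transcripts in the count files, and a gene was represented by the transcript with its largest mean count. Complementary DNA of the H1 line was sequenced by Nanopore in 4 libraries, 2 per state, all of wild-type genotype. Naive hESCs were collected at 50% confluency in the FINE condition, a medium with the kinase inhibitors dasatinib, AZD5438, SB590885 and PD0325901, the ROCK inhibitor Y-27632, LIF, Activin A and bFGF, used on Matrigel under low oxygen. Primed hESCs were collected at 60 to 70% confluency in mTeSR on Matrigel under normal oxygen. The naive cells had been derived from the same H1 primed line, so all 4 libraries represent a single line. Medium, oxygen, confluency and state cannot be told apart. The sources used here do not state whether replicates came from separate cultures, and p-values therefore measure only the spread between these libraries.

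The amnion is the thin epithelial sac around the embryo, and in primates it forms early, from cells of the epiblast. Genes used to recognise it encode AP-2, GATA and homeodomain transcription factors, keratins, receptors and secreted proteins of an epithelium that responds to BMP signals. Several of them are also used by trophoblast, the outer lineage of the placenta, and by other epithelia, so none of the 8 genes marks the amnion alone.

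The total ran from 129276054 to 161548901 counts per library, where an alignment counts for every transcript whose whole span it overlaps, introns included and strand ignored, and at every place it aligns. Levels are given as TMM-scaled CPM, that is counts divided by a library total that TMM corrects for composition, with factors of 0.773 and 0.827 in the naive and of 1.25 and 1.25 in the primed libraries. Where no count was seen, up to 3 counts remain possible, which is 0.0971 to 0.131 CPM, and this limit and all intervals reflect counting error alone. All 8 naive markers were called lower in primed hESCs (7 with library size in place of TMM) and all 7 primed markers higher (2 of 2 tested without either primed library). Among the naive markers *KLF17* fell least, with 2200 and 2423 naive and 2083 and 2236 primed counts (95.3 against 71.6 CPM, log2 fold change -0.41). *POU5F1*, the core pluripotency factor, had 7606 and 6709 counts in the naive libraries and 8689 and 8520 in the primed ones. The 12 trophoblast markers summed to 1750 and 2042 CPM in the naive libraries and to 9.79 and 9.19 CPM in the primed ones. Of them, 9 of 11 tested were called lower in primed hESCs. Of 6 tested without naive replicate 1, 4 were lower, and without naive replicate 2, 4 were lower and 1 higher. *CGA*, a hormone subunit of the placenta, had 35747 and 47550 counts in the naive and 0 and 1 in the primed libraries. It alone held 1562 and 1855 CPM of the naive sums, and *KRT7* and *ENPEP* were not called. The defining markers *ELF5* (31 and 55 against 1 and 3 counts) and *CDX2* (3 and 4 against 2 and 2) were low. In bulk libraries, fewer cells of a type and less RNA per cell cannot be told apart, and the part of trophoblast-like cells in the values below was not tested. Of the other marker lists, fibroblast genes summed to 5.64 and 5.77 CPM in the naive and 59.4 and 61.4 CPM in the primed libraries, with 3 of 5 tested higher and 1 lower (2 of 4 higher without naive replicate 1). Of the primed sum, *COL1A1* held 35.1 and *COL1A2* 21.8 CPM, while *TWIST1* fell from 1.71 to 0.197 CPM and *COL3A1* was not called. *DCN*, *LUM* and *PRRX1* had 0 or 1 counts in the naive libraries and at most 10 in a primed one. Endoderm genes (1 higher, 1 lower of 3 tested), mesoderm and heart genes (1 higher of 2 tested) and neural genes (2 higher of 3 tested) summed to between 0.976 and 29.6 CPM in every library, and without a primed library 1 gene each of the endoderm, mesoderm and neural lists was tested. The 5 pluripotency genes held 3 called higher and 1 called lower.

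The 250 bases before the RefSeq start of each gene (GRCh38.p14) are shown for the 4 genes that were lower in primed hESCs, since these moved in the same direction. Capitals mark matches to motifs that were searched on both strands. A TATA box was searched as TATAAA. The motif of GATA transcription factors was searched as AGATAA, and that of AP-2 factors as GCCNNNGGC. The GC box that Sp factors bind was searched as GGGCGG. A core shared by many homeodomain proteins was searched as TAATTA. The windows lie at chr1:117210928-117211177 (minus strand) for *VTCN1*, chr5:170783475-170783724 (plus strand) for *GABRP*, chr5:51383198-51383447 (plus strand) for *ISL1* and chr7:45921273-45921522 (minus strand) for *IGFBP3*.
VTCN1: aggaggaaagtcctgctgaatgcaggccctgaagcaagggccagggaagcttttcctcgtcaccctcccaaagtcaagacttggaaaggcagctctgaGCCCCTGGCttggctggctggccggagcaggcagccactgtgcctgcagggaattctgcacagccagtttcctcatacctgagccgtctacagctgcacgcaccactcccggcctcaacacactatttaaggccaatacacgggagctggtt
GABRP: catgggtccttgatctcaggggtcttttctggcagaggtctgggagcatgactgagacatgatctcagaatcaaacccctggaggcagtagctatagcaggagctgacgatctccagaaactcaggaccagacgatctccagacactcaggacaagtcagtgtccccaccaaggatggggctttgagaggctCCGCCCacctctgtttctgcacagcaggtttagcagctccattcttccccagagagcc
ISL1: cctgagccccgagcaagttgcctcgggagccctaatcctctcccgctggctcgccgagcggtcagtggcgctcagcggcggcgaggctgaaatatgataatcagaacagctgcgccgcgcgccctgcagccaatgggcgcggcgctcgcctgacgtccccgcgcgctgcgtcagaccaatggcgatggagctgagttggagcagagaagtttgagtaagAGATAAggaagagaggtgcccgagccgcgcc
IGFBP3: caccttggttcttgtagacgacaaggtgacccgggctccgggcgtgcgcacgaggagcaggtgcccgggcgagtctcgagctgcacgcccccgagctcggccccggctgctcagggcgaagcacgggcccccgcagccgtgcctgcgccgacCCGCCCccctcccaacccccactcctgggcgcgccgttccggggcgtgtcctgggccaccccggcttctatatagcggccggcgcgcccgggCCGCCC

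The *VTCN1* window holds an AP-2 match at -152 and the *ISL1* window a GATA match at -31, while *GABRP* has a GC box match at -58 and *IGFBP3* GC box matches at -98 and -6. For contrast, the windows of 2 genes that were higher in primed hESCs are shown, at chr9:97039143-97039392 (minus strand) for *CTSV* and chr2:216695550-216695799 (minus strand) for *IGFBP5*.
CTSV: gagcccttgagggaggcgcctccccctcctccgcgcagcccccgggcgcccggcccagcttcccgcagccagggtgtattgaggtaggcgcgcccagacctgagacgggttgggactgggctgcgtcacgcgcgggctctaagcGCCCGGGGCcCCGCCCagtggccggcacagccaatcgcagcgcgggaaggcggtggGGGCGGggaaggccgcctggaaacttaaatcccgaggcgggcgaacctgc
IGFBP5: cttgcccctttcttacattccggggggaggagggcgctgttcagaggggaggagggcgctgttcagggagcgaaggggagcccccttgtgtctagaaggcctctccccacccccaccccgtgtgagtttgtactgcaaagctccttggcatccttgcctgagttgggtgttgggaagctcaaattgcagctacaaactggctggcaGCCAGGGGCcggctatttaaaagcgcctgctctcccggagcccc

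Each of these has an AP-2 match, at -106 in *CTSV* and at -44 in *IGFBP5*, and *CTSV* also has GC box matches at -96 and -50. No printed match overlaps a match to another motif. Among 35116 promoter windows of the same length, 10.7% hold a TATA box, 9.17% the GATA factor motif, 19.8% the AP-2 motif, 42.6% a GC box and 4.35% the homeodomain core. In the windows of the 8 genes the respective numbers are 0, 1, 3, 4 and 0. The windows differ in CpG content, with 27 CpG in *ISL1*, 27 in *CTSV* and 32 in *IGFBP3* against 6 in *VTCN1* and 3 in *GABRP*, beside a median of 11 over all windows. The RefSeq start of *TPM1* lies inside the gene, at 63048489 on chromosome 15, while its canonical transcript starts at 63042747.

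Of the 8 genes, 7 passed the filter of at least 10 counts in at least 2 libraries, and all 7 were called (edgeR quasi-likelihood test, Benjamini-Hochberg adjusted p below 0.05). *VTCN1*, *GABRP*, *ISL1* and *IGFBP3* were lower in primed hESCs, and *CTSV*, *TPM1* and *IGFBP5* were higher. *CDH10* had too few counts to be tested. Differences between the states were widespread, with 70.5% of the 27633 tested genes called, 37.5% higher and 33% lower in primed hESCs, so the count of calls among the 8 is no result about them. The values of the states did not overlap for any of the 8 genes, and this held for 84.4% of all tested genes. The size of the change is given as a description only, because the 8 genes were chosen with earlier results of these data known. *VTCN1* and *ISL1* also passed the count filter through their naive libraries alone. The log2 fold change of *ISL1* was below that of 98.8%, *VTCN1* of 97.8% and *IGFBP3* of 95.6% of the tested genes. The median over the 7 tested genes was -0.76, which is the value of *GABRP*, and the median over all tested genes was 0.07. Scaling by library size in place of TMM moved these medians to -0.11 and 0.72. It moved the split of calls over all genes from 53.2% to 77.5% higher in primed hESCs. By canonical transcripts the median of the 7 was -1.88. Without naive replicate 1 or 2 the median of the members still tested was 0.47 or 0.49, with *VTCN1* and *ISL1* not tested.

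**Figure D1:**
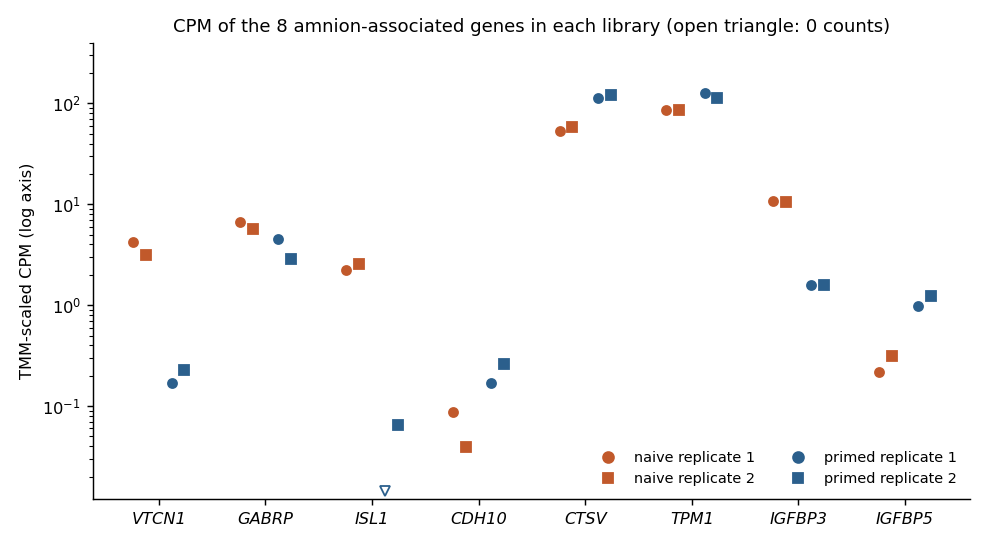
TMM-scaled CPM of the 8 amnion-associated genes, on a log axis, in each of the 4 libraries (circles replicate 1, squares replicate 2, and an open triangle for 0 counts). The naive libraries lie above the primed ones for VTCN1, GABRP, ISL1 and IGFBP3 and below them for CDH10, CTSV, TPM1 and IGFBP5.

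Per kilobase of exonic length, the naive order was *TPM1* (26.0 CPM per kb), *CTSV* (24.9), *GABRP* (8.62), *IGFBP3* (4.03), *VTCN1* (1.61), *ISL1* (0.995), *IGFBP5* (0.0425) and *CDH10* (0.0184). By these transcripts *TPM1* and *CTSV* were not separated in naive hESCs, with replicates of 25.8 and 26.2 against 23.8 and 25.9. In primed hESCs the order was *CTSV* (52.7 CPM per kb), *TPM1* (36.2), *GABRP* (5.09), *IGFBP3* (0.605), *IGFBP5* (0.178), *VTCN1* (0.0866), *CDH10* (0.0624) and *ISL1* (0.0135). *VTCN1* and *CDH10* overlapped there, with 0.0743 and 0.0990 against 0.0494 and 0.0753. These levels depend on the transcript taken, because counts were made over spans while the length is that of the exons. By the canonical transcripts *TPM1* came to 73.1 CPM per kb in naive and 99.2 in primed hESCs and *CTSV* to 12.9 and 20.7, so *TPM1* was then first in both states, and *GABRP* came to 2.43 and 0.659.

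*VTCN1* encodes B7-H4, a surface protein of the B7 family that restrains T cells. The gene lies on the minus strand of chromosome 1 (117143588 to 117210960, GRCh38, span of *VTCN1-201*, ENST00000328189). It had 96 and 81 counts in the naive libraries and 5 and 7 in the primed libraries, or 3.68 ± 0.732 CPM and 0.198 ± 0.0400 CPM (SD, n = 2 each). The states were far apart, and the log2 fold change was -4.17 ± 0.38 (SE, adjusted p = 5.88e-24). No other annotated gene overlaps this span. Its only close copy, a processed pseudogene on chromosome 20 with 94.2% identity over 825 bases, had 0 counts in all libraries. With library size the log2 fold change was -3.53. With a naive library left out *VTCN1* no longer passed the count filter.

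*GABRP* encodes the pi subunit of the GABA-A receptor, a chloride channel subunit found in epithelia outside the brain. It lies on the plus strand of chromosome 5, and the largest mean count belonged to *GABRP-209* (ENST00000521481, 170763350 to 170797521), with 154 and 146 counts in naive and 132 and 88 in primed libraries. This was 6.21 ± 0.731 CPM against 3.67 ± 1.16 CPM (SD, n = 2 each), a log2 fold change of -0.76 ± 0.21 (SE, adjusted p = 0.000828). The call was lost with library size (-0.11, adjusted p = 0.665) and without primed replicate 2 (-0.47, adjusted p = 0.109). The canonical transcript *GABRP-201* (170783725 to 170814047), which starts further downstream, had 188 and 174 against 72 and 50 counts and a log2 fold change of -1.88 ± 0.23. The canonical span leaves out an upstream stretch and reaches further at the 3' end. For alignments confined to the 19332 bases upstream of the *GABRP-203* start, the counts allow 0 to 12 and 0 to 13 in naive libraries. In primed libraries they allow 58 to 86 and 38 to 55. Alignments that run from this stretch into *GABRP-203* are not among them. Confined alignments made up at least 43.9% and 43.2% of the *GABRP-209* counts in primed libraries and at most 7.79% and 8.90% in naive ones. In CPM they came to at least 1.97 and 1.23 in primed and at most 0.524 and 0.507 in naive libraries. They were thus higher in primed hESCs while the canonical span was lower. Alignments that lay mainly after the *GABRP-202* end, at the 3' side, numbered 46 and 41 in naive and 28 and 17 in primed libraries, or 1.81 ± 0.290 against 0.751 ± 0.284 CPM. A long noncoding RNA on the other strand (170767204 to 170788650) overlaps both spans, and since strand was ignored its counts, between 67 and 142 per library, cannot be told apart from those of *GABRP*.

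*ISL1* encodes a LIM-homeodomain transcription factor of amnion, heart progenitors and motor neurons. It lies on the plus strand of chromosome 5 (ENST00000230658, 51383448 to 51394730) with 51 and 65 counts in the naive libraries and 0 and 2 in the primed ones. The naive level was 2.38 ± 0.217 CPM (SD, n = 2), and both primed libraries lay under the limit that a count of 0 allows. The naive level was 72.1 times the primed one, with a 95% counting interval of 19.5 to 603, and edgeR gave a log2 fold change of -5.99 ± 0.56 (SE, adjusted p = 1.15e-22). Of the naive counts, 12 and 13 counts lay outside a shorter transcript (51386204 to 51393567), before its start or after its end. No other gene overlaps it, and *ISL2*, its nearest paralog with 83.3% identity over 317 bases, had 0 and 0 naive and 3 and 3 primed counts. Without primed replicate 1 the log2 fold change was -5.11 and without primed replicate 2, with 0 primed counts left, -8.96, a value that depends on the prior count of the fit. *ISL1* was not tested with a naive library left out.

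*CDH10* encodes a type II cadherin of neural tissue. Its span on the minus strand of chromosome 5 (ENST00000264463, 24487100 to 24644978) held 2 and 1 counts in the naive and 5 and 8 in the primed libraries. The primed level was 3.49 times the naive one, with a counting interval of 0.958 to 19.1 that includes no difference. Without the count filter the log2 fold change was 1.72 ± 0.95 (adjusted p = 0.140), and with counts summed over its transcripts, which count the same alignments repeatedly, it was 2.01 ± 0.64 (adjusted p = 0.0179). An overlapping long noncoding RNA on the other strand had 2 and 0 against 3 and 6 counts. A difference was therefore not detectable at this depth in the single-span counts.

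*CTSV* encodes cathepsin V, a lysosomal cysteine protease close to cathepsin L. The largest mean count belonged to *CTSV-214*, a retained-intron transcript on the minus strand of chromosome 9 (ENST00000681517, 97032655 to 97156556), with 1213 and 1481 counts in the naive and 3326 and 3768 in the primed libraries. This was 55.4 ± 3.38 CPM against 118 ± 6.30 CPM (SD, n = 2 each), a log2 fold change of 1.08 ± 0.15 (SE, adjusted p = 2.36e-11). The canonical *CTSV-201* (97029677 to 97039142) had 1145 and 1408 against 2364 and 2716 counts and a smaller change of 0.68 ± 0.15. Here too the spans differed by an upstream stretch. Alignments confined to the 109293 bases before the *CTSV-205* start numbered 76 and 79 in naive and 1022 and 1141 in primed libraries. They made up 6.27% and 5.33% against 30.7% and 30.3% of the *CTSV-214* counts. In CPM they were 11.2 times as high in primed hESCs (3.20 ± 0.169 against 35.8 ± 1.55). *CTSV-204* (97048824 to 97089428), which lies inside this stretch, had 6 and 7 naive and 41 and 69 primed counts. Most of the confined primed alignments thus lay outside its span. The stretch also holds 5 pseudogenes of other genes, with at most 27 counts each in any library. The pseudogene *ANKRD18CP* lies upstream on the same minus strand, its 3' end 14 bases before the *CTSV-214* start, and had 1110 and 1168 naive and 9215 and 8108 primed counts. It was named after its values were seen, and its part in the upstream alignments was not tested. Apart from this, 15 and 11 naive and 65 and 98 primed alignments lay only in the stretch after the *CTSV-208* end. *CTSL*, the closest paralog with 82.0% identity over 1220 bases, had 20510 and 27634 naive and 749 and 1043 primed counts, the opposite direction. Parts of *CTSV-201* also matched transcripts of 2754 other genes at 80% identity or more.

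*TPM1* encodes a tropomyosin, a coiled-coil protein that winds along actin filaments. Over *TPM1-234* on the plus strand of chromosome 15 (ENST00000651344, 63042648 to 63071897) there were 1954 and 2230 naive and 3762 and 3468 primed counts. This was 86.2 ± 1.15 CPM against 120 ± 11.1 CPM (SD, n = 2 each), a log2 fold change of 0.48 ± 0.15 (SE, adjusted p = 0.00287). Without primed replicate 1 it was 0.38 and the call was lost (adjusted p = 0.0748), and with library size it was 1.12 beside the median of 0.72 over all genes. Alignments that missed the first 5 kb made up 21.6% and 22.1% in naive and 20.4% and 24.3% in primed libraries, a difference within the spread of the replicates. Alignments that lay only after the *TPM1-207* end made up 3.12% and 3.72% in naive and 5.40% and 6.83% in primed libraries. Alignments that reach both sides of that end are not among them. A long noncoding RNA on the other strand (63070025 to 63071911) lies after that end, with 1118 and 1133 against 2070 and 1808 counts. *TPM1-AS* overlaps the start, with 180 and 199 against 125 and 157. *TPM2*, *TPM3* and *TPM4* share 80.1% to 80.5% identity with *TPM1* over 312 to 857 bases.

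*IGFBP3* and *IGFBP5* encode secreted proteins that bind insulin-like growth factors and set how much reaches the receptor, and they moved in opposite directions. *IGFBP3* lies on the minus strand of chromosome 7 (ENST00000381083, 45912245 to 45921272), with 244 and 270 counts in naive and 47 and 49 in primed libraries. The level was 10.6 ± 0.0904 CPM against 1.59 ± 0.00821 CPM (SD, n = 2 each), which is 6.66-fold lower in primed hESCs, and the log2 fold change was -2.73 ± 0.22 (SE, adjusted p = 7.89e-29). No other gene overlaps it and no copy was found. The fall was not even along the gene. The body covered by *IGFBP3-204* (45914101 to 45917397) had 30 and 35 naive and 23 and 14 primed counts, while the 1856 bases at the 3' end (45912245 to 45914100) held at least 187 and 204 alignments of their own in the naive libraries and at most 24 and 35 in the primed ones. Alignments confined there made up at least 76.6% and 75.6% of the naive counts and at most 51.1% and 71.4% of the primed counts. Alignments that cover both the end and the body count with the body.

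*IGFBP5* lies on the minus strand of chromosome 2 (ENST00000233813, 216672105 to 216695549), with 5 and 8 counts in naive and 29 and 38 in primed libraries. The level was 0.265 ± 0.0662 CPM against 1.11 ± 0.173 CPM (SD, n = 2 each), a log2 fold change of 2.03 ± 0.45 (SE, adjusted p = 2.20e-05). Of these, 1 and 3 naive and 16 and 21 primed alignments lay outside a shorter retained-intron transcript, in the 6653 bases at the 3' end or the 882 bases at the 5' end. The antisense RNA *DIRC3-AS1*, which overlaps the first part of *IGFBP5* and matches 329 of its bases at 99.7% identity, had 11 and 22 naive and 36 and 34 primed counts. *IGFBP5* did not pass the count filter with a primed library left out.

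**Figure D2:**
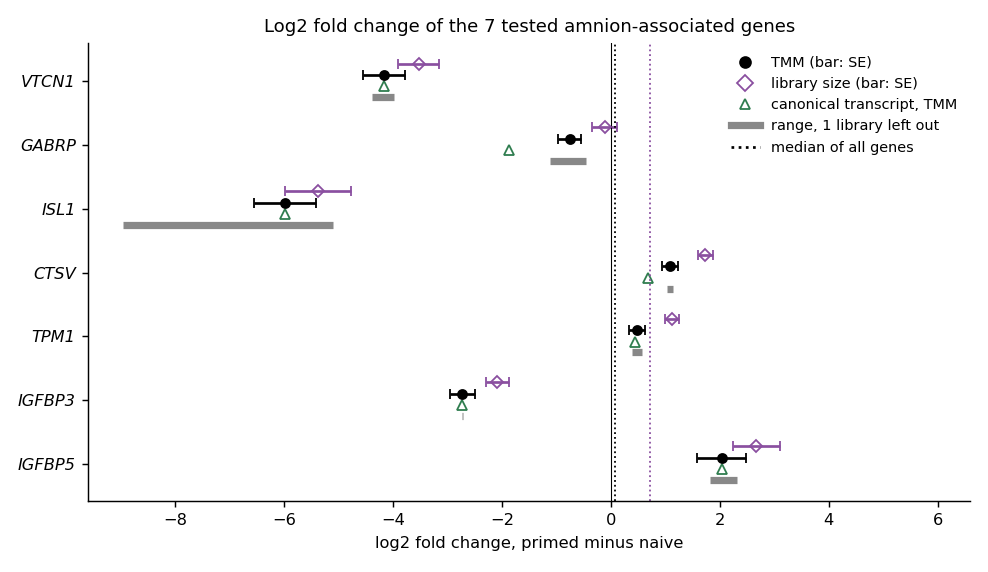
Log2 fold change (primed minus naive) of the 7 tested amnion-associated genes with TMM (black, bar SE), with library size (purple, bar SE), for the canonical transcript (green triangle) and the range with 1 library left out (grey bar), with dotted lines at the median of all genes, 0.07 with TMM and 0.72 with library size. VTCN1, ISL1 and IGFBP3 stay far below and IGFBP5 above both medians, while GABRP moves from -0.76 to -0.11 with library size and to -1.88 by its canonical transcript.

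The use of isoforms was tested for 85 of the transcripts, which belong to the 7 tested genes, with diffSpliceDGE of edgeR. A call needed a difference in isoform fraction (dIF) of more than 0.1 besides an adjusted p below 0.05. None of the 85 was called (15 had an unadjusted p under 0.05), beside 0.558% of all 159577 isoforms tested. Without the dIF threshold 4 of the 85 passed, beside 4.28% of all, namely *CTSV-204* (dIF 0.0037, adjusted p = 0.000174) and *IGFBP3-205*, *IGFBP3-207* and *IGFBP3-208* (dIF 0.04 to 0.05, adjusted p = 0.0397 to 0.0450). Many transcripts of a gene hold identical counts here, such as the 3 full-length transcripts of *IGFBP3*. With identical transcripts collapsed to 1, *IGFBP3-201* was called, at an isoform fraction of 27.1% and 26.2% in naive and 8.26% and 13.5% in primed libraries (dIF -0.16, adjusted p = 0.00553). The call rests on the same counts as the alignments by stretch, where those confined to the 3' end made up a smaller share in primed libraries. The 3 *ISL1* transcripts have no isoform fraction in primed replicate 1, where the gene had 0 counts. They are among the 85 but have no dIF, so they could not be called.

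**Figure D3:**
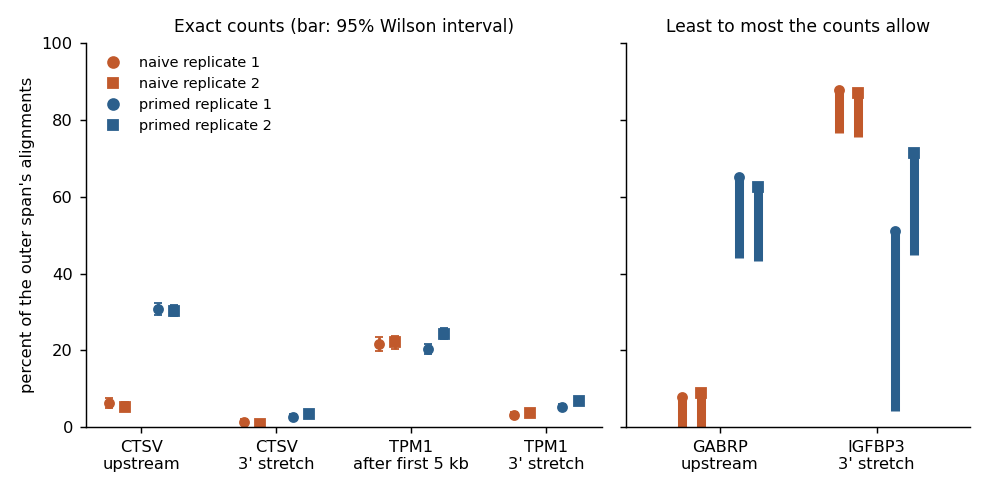
Share of the alignments of a gene's outer span that miss a nested shorter span, in percent, per library: left, exact counts for CTSV and TPM1 with 95% Wilson intervals, and right, the least and most that the counts allow for GABRP and IGFBP3. The CTSV upstream share is 6.27% and 5.33% in naive against 30.7% and 30.3% in primed libraries, and the GABRP ranges of the states do not touch, nor do those of IGFBP3.

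The counts of calls in the related lists below stand beside 70.5% of all tested genes called, 37.5% higher and 33% lower in primed hESCs. A count near these shares is no result about a list. Other genes used as amnion markers were mostly lower in primed hESCs. Of 16 genes, 15 were tested, 13 were called lower and 1 higher, with a median log2 fold change of -4.83, or -4.19 with *TFAP2B*, which had 0 primed counts, at its bound. *TFAP2A*, an AP-2 factor of surface epithelium and trophoblast, fell most, from 823 and 1008 counts in the naive libraries to 3 and 0. The naive level was 759 times the primed one, with a counting interval of 259 to 3683. *TFAP2B* was at least 18.2-fold lower, against a floor of 3 counts over both primed libraries. *POSTN*, a matrix protein, was the gene called higher (2 and 2 against 12 and 14 counts), but not by DESeq2 (adjusted p = 0.0763). *BAMBI*, an inhibitor of BMP signalling, had 23 and 25 against 26 and 39 counts and was not called. Several of these genes, among them *TFAP2A*, *TFAP2C*, *GATA2*, *GATA3* and *HAND1*, are also known from trophoblast, whose markers fell in the same libraries. Leaving out either naive library left 7 tested genes and 6 calls, because a gene then needs counts in primed hESCs to pass the filter.

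In the IGF axis, to which both binding proteins belong, 10 of 14 tested genes were higher, 3 lower and 1 not called, with a median of 1.79. With library size 10 were higher and 1 lower. *STC1*, a glycoprotein that blocks the protease PAPPA, rose most, from 1 and 1 counts to 679 and 658, a ratio of 538 with a counting interval of 149 to 4444. *STC2*, its paralog, fell most, from 22.1 ± 1.39 CPM to 8.62 ± 0.218 CPM (SD, n = 2 each, log2 fold change -1.36 ± 0.17, adjusted p = 3.59e-14). The binding proteins *IGFBP2*, *IGFBP4* and *IGFBP6* were higher in primed hESCs, as *IGFBP5* was, with log2 fold changes of 2.09, 6.32 and 4.60. *IGFBP2* had 166 and 153 naive counts and 534 and 1171 primed counts, so the primed replicates lay far apart, and without primed replicate 2 its log2 fold change was 1.46. Without primed replicate 2, 7 of 9 tested genes of the axis were called.

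Among GABA-A receptor subunits, the family of *GABRP*, 11 of 13 tested genes were higher in primed hESCs and none was lower, with a median of 1.89. *GABRA5* rose most among those with a mean count of at least 50, from 0.380 ± 0.290 CPM to 3.10 ± 0.0568 CPM (SD, n = 2 each, log2 fold change 2.98 ± 0.36, adjusted p = 4.73e-15). It had 4 and 15 naive counts, and without naive replicate 2 the log2 fold change was 4.11. None of them was called in the direction of *GABRP* in the main fit. With counts summed over the transcripts, 12 subunits were higher and 1 lower of 16 tested. Most of these genes are long and had few counts, and 4 of 7 tested were called without either primed library in turn. The LIM-homeodomain list of *ISL1* had 4 genes higher, 1 lower and 2 not called of 7 tested, with a median of 1.70. *LDB2*, a cofactor of these factors, rose from 5.16 ± 0.121 CPM to 52.3 ± 6.89 CPM (log2 fold change 3.34 ± 0.18, adjusted p = 3.91e-57), and *LMO4* fell from 26.1 ± 2.52 CPM to 7.86 ± 0.319 CPM (-1.73 ± 0.17, adjusted p = 2.31e-21). Leaving out either primed library left 2 calls of 4 tested.

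Of the B7 family of *VTCN1*, 1 gene was higher, 2 were lower and 3 were not called, with a median of -0.13. *CD274*, the checkpoint ligand PD-L1, fell from 119 and 128 counts to 0 and 5 (log2 fold change -5.87 ± 0.42, adjusted p = 1.38e-35), and so shares with *VTCN1* a fall from a few CPM to near the floor. It was -4.94 without primed replicate 1 and -10.05 without primed replicate 2, where the only primed library had 0 counts and the value depends on the prior count of the fit. With library size, 3 genes of the family were higher and 2 lower. Type II cadherins and catenins, the list of *CDH10*, had 7 genes higher, 5 lower and 2 not called, with a median of 0.70. *CDH8* rose from 2.58 ± 0.318 CPM to 10.7 ± 0.792 CPM (log2 fold change 2.04 ± 0.21, adjusted p = 1.88e-19). *CDH5*, the cadherin of endothelium, fell from 118 and 132 counts to 2 and 0, a naive level 155 times the primed one with a counting interval of 42.6 to 1290. With library size 8 genes of this list were higher and 3 lower, while without either primed library 3 were higher and 4 lower, with a median of -0.42 without replicate 1 and of 0.02 without replicate 2.

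Of 13 tested cysteine cathepsins and cystatins, 3 were higher, 6 lower and 4 not called, with a median of -0.30. *CTSL* fell most, from 987 ± 129 CPM to 29.6 ± 5.87 CPM (log2 fold change -5.06 ± 0.18, adjusted p = 5.05e-101), opposite to its paralog *CTSV*. *CTSC* rose from 54.0 ± 1.26 CPM to 89.3 ± 4.19 CPM (0.73 ± 0.15, adjusted p = 6.31e-06). Without primed replicate 2, 4 of 11 tested were called. With library size, 4 genes of this list were higher and 3 lower. Tropomyosins and their actin partners, the list of *TPM1*, had 7 genes higher and 10 lower of 19, with a median of -0.60. *TAGLN2* fell from 143 ± 11.9 CPM to 28.5 ± 3.43 CPM (-2.33 ± 0.16, adjusted p = 9.00e-39). *LMOD1*, which nucleates actin filaments, rose from 0.574 ± 0.0706 CPM to 2.92 ± 0.195 CPM (2.33 ± 0.33, adjusted p = 3.47e-11). With library size this turned to 8 higher and 3 lower, with a median of 0.04.

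**Figure D4:**
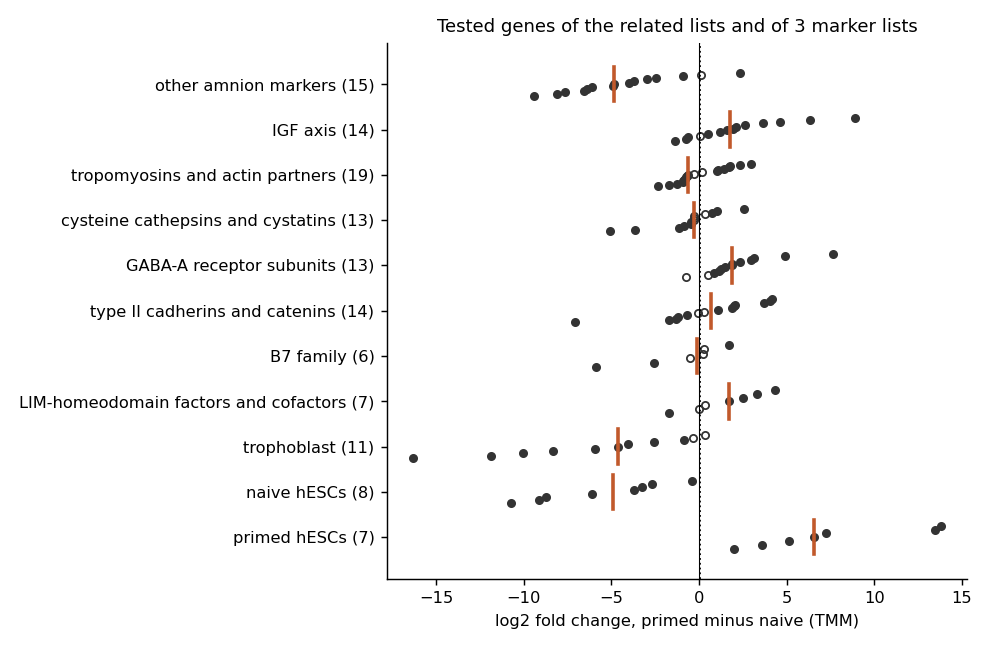
Log2 fold change (primed minus naive, TMM) of the tested genes of the 8 related lists and of 3 marker lists, with the number tested in brackets (filled circles called, open circles not called, orange bar the median of the list, dotted line the median of all genes at 0.07). The other amnion markers and the trophoblast markers lie mostly to the left, with medians of -4.83 and -4.64, and the IGF axis and the GABA-A subunits mostly to the right, with medians of 1.79 and 1.89.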

How the data were processed

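Complementary DNA of naive and primed H1 hESCs was sequenced on the Nanopore platform in 4 libraries. The authors aligned the reads to GRCh38 with minimap2 and deposited raw counts per transcript of Ensembl release 105, made with featureCounts 2.0.0 over whole transcript spans (options -L, -O and -M, strand ignored). The values are counts of alignments with no normalization, and replicates were not pooled.

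Of 244825 transcripts, 242542 were matched by identifier to GENCODE for symbols and exonic lengths, and 97.9% of these had the same position. The others, with 1.0% of all counts, were not tested. The 8 genes and the related lists were chosen with earlier results of these data known. Each gene took the count of a single transcript, the one with its largest mean. The test covered genes that reached 10 counts in 2 or more libraries and used edgeR 4.0.16 in R 4.3.3 (TMM, quasi-likelihood F test, state as the term, two-sided), with Benjamini-Hochberg adjustment over all 27633 genes tested. Isoform usage was tested with diffSpliceDGE on transcripts under the same filter. SE was the absolute log2 fold change divided by the root of F. Alignments by stretch are differences of the counts of nested spans, with no test, because an exact permutation test of 2 against 2 libraries cannot reach the threshold. Shares carry 95% Wilson intervals, and ratios with 1 to 3 counts in a state exact binomial ones. From each related list, the called gene with the largest rise and the one with the largest fall were named among those with a mean count of at least 50, and other list genes were named after their values were seen. Copies were searched with blastn 2.17.0 (at least 80% identity over at least 100 bases), and promoter windows of 250 bases came from RefSeq (GRCh38.p14), matched by symbol for all 8 genes.

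Alternatives were library size in place of TMM, DESeq2 1.42.0, no count filter, at least 50 counts, the replicate number as a block, counts summed over transcripts, the canonical transcript, other dIF thresholds, fractions without length, identical transcripts collapsed to 1, and each library left out in turn. The fits were tested on simulated counts. Python 3.11.15 with pandas 2.3.3 served for tables, and matplotlib for figures.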

Additional observations from a re-analysis of the deposited data

How the results depend on the processing

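The 7 calls among the amnion-associated genes came to between 5 and 8 under the alternatives, and the calls over all genes, 19471, to between 14050 and 21141, 14050 to 16807 of them with 1 library left out. Of the 8 genes and of the genes of the related lists named with a direction, none reversed it under an alternative that gave a value. The cell type markers were not all checked in this way. *BAMBI*, not called at 0.12, was -0.16 without primed replicate 2, 0.35 without primed replicate 1 and 0.76 with library size, where it was called (adjusted p = 0.0484). *GABRP* lost its call with library size (-0.11, adjusted p = 0.665), and with 1 library left out its log2 fold change ran from -1.12 to -0.47 (highest adjusted p = 0.109). *TPM1* ran from 0.38 to 0.57 with 1 library left out (highest adjusted p = 0.0748). *CDH10* passed the threshold only with counts summed over its transcripts (2.01). For isoform usage of the 8 genes, 4 isoforms passed with a dIF threshold of 0 and 1 with identical transcripts collapsed to 1, against 0 otherwise. The cause of these changes was not tested. Over the related lists together, 84 calls became 58 with a filter of at least 50 counts, with 67 genes tested in place of 101, and 56 to 70 with a library left out.

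The replicate number did not pair the libraries in the labels, and the deviations of same-numbered libraries had a Pearson correlation of 0.0407 across genes, with only 2 pairs. With the replicate block 19637 genes were called, 7 of the amnion-associated genes, 84 genes of the related lists and 0 of their isoforms, and no call among the 8 genes changed. *VTCN1* and *ISL1* could not be tested with a naive library left out, *IGFBP5* with a primed library left out or at 50 counts. With a library left out, the lone library was assumed to vary like the other state. The depth limits *CDH10* and the primed values of *ISL1*, which lie at or near the limit that a count of 0 allows.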
